A study of Homo sapiens with 8 samples.

Results

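Amine oxidases and the enzymes of polyamine metabolism were examined in RNA-seq of SW1990 cells, an established human pancreatic cancer cell line. The set holds 10 of the 38637 genes listed: MAOA, MAOB, SMOX, PAOX, SAT1, ODC1, OAZ1, AMD1, SRM and SMS, taken by symbol because they are flavin amine oxidases related to KDM1A or act in the synthesis and breakdown of polyamines. There were 4 groups of 2 libraries each, all from SW1990 cells: cells carrying the empty vector (Vector, replicates 2 and 3), cells overexpressing EBF2, an early B-cell factor (EBF2-OE, replicates 2 and 3), vehicle-treated cells (Vehicle, also titled Mock, replicates 1 and 2) and cells treated with GSK-LSD1, an inhibitor of KDM1A/LSD1 (GSK-LSD1, replicates 1 and 2, titled 2000 µM, a dose that the study's text does not state for RNA-seq and that could not be checked here). The doses that the study states for its western blots of GSK-LSD1 in these cells all lie below the titled dose. The treated groups were each set against their own control to ask how the transcriptome of these cells responds to either change, and the controls were compared with each other. How long cells were treated, what drives the EBF2 transgene, whether cells came from 1 clone and whether replicates were separate cultures were not given in the sources used here, so that p-values measure only the spread between these libraries, which may be technical.

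Polyamines (putrescine, spermidine and spermine) are small cations that bind RNA and chromatin and are needed for growth. ODC1 makes putrescine from ornithine, AMD1 provides the aminopropyl donor, and SRM and SMS add it to form spermidine and then spermine. In the other direction SAT1 acetylates spermidine and spermine, PAOX oxidises the acetylated products, and SMOX oxidises spermine directly. OAZ1 is the antizyme that binds ODC1 and directs it to the proteasome. PAOX, SMOX, MAOA and MAOB are flavin enzymes that share an amine oxidase fold with KDM1A, and the monoamine oxidases act on neurotransmitters and dietary amines.

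OAZ1 protein is made only when ribosomes shift frame at a stop codon, and polyamines favour that shift. The site lies in coding sequence at chr19:2271428-2271457 on the plus strand (hg38), and GENCODE v44 leaves out the base at position 2271443 of chromosome 19 when it joins the coding sequence. It is shown because an OAZ1 mRNA level does not report this step, with the stop codon in capitals.
OAZ1 frameshift site: cctcggtggtgctccTGAtgcccctcaccc

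RefSeq windows (GRCh38.p14) from 250 bases before to the first 50 bases of the transcript were at hand for 8 of the 10 genes. SMOX and PAOX had no entry. ODC1 and SRM, which had the largest called differences between the controls, both held the E-box CACGTG, a palindrome that reads the same on both strands and is known as a binding sequence of MYC and its partners. The ODC1 matches belong to the window of a start at position 10448012 of chromosome 2, inside the listed gene, and number 2. Of these, 1 lay in the 150 bases before that start and the other after it. None lay in the window of its outer start at 10448327. The SRM window held 1 match, more than 150 bases before the start at position 11060018 of chromosome 1. No such match was found in the windows of MAOA, MAOB, SAT1, OAZ1, AMD1 or SMS, and 7.26% of all 35116 windows in the table, 1 for each start, hold one. AMD1 and SMS, which hold none, also passed the adjusted p-value between the controls without a fold limit. SMOX, also called between the controls, could not be read. Whether the motif has any part in the differences between the controls was not tested. All stretches are read from the minus strand with the E-box in capitals, at chr2:10448024-10448053, chr2:10447990-10448019 and chr1:11060200-11060229.
ODC1 E-box 1: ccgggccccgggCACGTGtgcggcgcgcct
ODC1 E-box 2: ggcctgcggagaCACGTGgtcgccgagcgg
SRM E-box 1: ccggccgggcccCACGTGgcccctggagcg

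The monoamine oxidase pair was read for the GC box GGGCGG on either strand, counting overlapping matches, because 1 gene of the pair was abundant and the other nearly absent. The MAOA window held 4 matches and the MAOB window 7, where 45.0% of all windows hold at least 1. That share gives no measure for the number of matches in a window. The MAOA window belongs to a start at position 43656299, inside the listed gene, and the MAOB window to the listed outer end at 43882450. Any link of the motif to the levels was not tested. The match nearest before each start is shown in capitals, for MAOA at chrX:43656231-43656260 on the plus strand (as its complement CCGCCC) and for MAOB at chrX:43882468-43882497 on the minus strand, where matches overlap.
MAOA GC box 1: gaaggatcggctCCGCCCccgggctccccg
MAOB GC box 1: gcgtaggcGGGCGGGCGGggctgcgcgtcc

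The libraries held between 20453362 and 27054876 counts on genes, of which between 0.744% and 1.42% fell on mitochondrial genes. EBF2, the overexpressed gene, had 28 counts in each Vector library and 5818 and 90100 in the EBF2-OE libraries, so that these 2 differ widely in EBF2 level. Of the markers of the labelled cell type, KRT8, KRT18, KRT7 and MUC1 were abundant, whereas EPCAM had 4 to 20 counts, CDH1 7 to 57 and KRT19 0 to 21 per library. Acinar and endocrine markers stayed at or below 0.4332 TPM in sum, fibroblast markers summed to between 50.84 and 66.77 TPM, and immune markers, mostly CD68, to between 12.18 and 32.19 TPM. The spread between replicates, as the biological coefficient of variation, was 19.0% for EBF2-OE and Vector, 5.87% for GSK-LSD1 and Vehicle and 13.1% for the controls.

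Levels between genes are given as TPM, counts divided by transcript length and rescaled to a common total per library. OAZ1 led with a mean of 1325 TPM over the 8 libraries, followed by SRM with 230.9, SMS with 155.2 and SAT1 with 104.5. ODC1 (mean 85.4 TPM), MAOB (83.5), SMOX (48.3) and AMD1 (48.0) lay below them, and PAOX (0.940) and MAOA (0.139) were nearly absent. OAZ1 ranked 110 among all listed genes by mean TPM. OAZ1 stood above SRM, and SRM above SMS, in 8 of 8 libraries, and MAOB above SMOX in 8 of 8. Neighbours that did not separate were ODC1 and MAOB, with ODC1 higher in 4 of 8 libraries, and SMOX and AMD1, with SMOX higher in 3 of 8. SAT1 exceeded ODC1 in 6 of 8 libraries, the exceptions being Vector 2 and EBF2-OE 2.

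**Figure D1:**
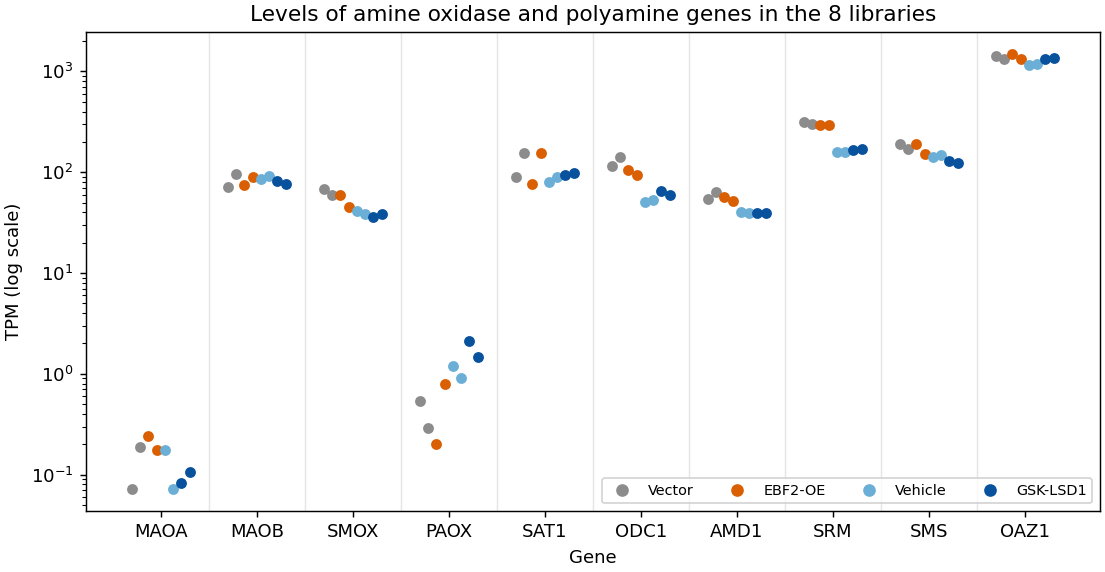
TPM of each gene (log axis) in the 8 libraries, 1 point per library, coloured by group. OAZ1 lies above 1158 TPM in every library, MAOA stays at or below 0.2437 TPM and MAOB stays between 70.8 and 95.2 TPM.

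MAOA and MAOB lie tail to tail on chromosome X, MAOA at 43655006 to 43746817 on the plus strand and MAOB at 43766610 to 43882450 on the minus strand, with 19792 bases between them. MAOA, which prefers serotonin and noradrenaline, had 3 and 9 counts in Vector, 10 and 8 in EBF2-OE, 9 and 4 in Vehicle and 4 and 5 in GSK-LSD1. MAOB, which prefers phenylethylamine, had 1618 and 2525 counts in Vector, 1702 and 2282 in EBF2-OE, 2425 and 2822 in Vehicle and 2187 and 1975 in GSK-LSD1. Over all libraries 52 counts on MAOA stood against 17536 on MAOB. Per transcript length MAOB was 611-fold above MAOA (exact 95% binomial interval 466 to 819, covering counting error only). MAOA was too low to be tested in any comparison. In bulk RNA, fewer cells with a transcript and less of it per cell cannot be told apart, here and for the genes that follow. MAOB passed no test, with log2 fold changes of 0.02 ± 0.197 (SE) in EBF2-OE, -0.14 ± 0.0609 in GSK-LSD1 and -0.11 ± 0.163 in Vector against Vehicle. Both GSK-LSD1 libraries lay below both Vehicle libraries for MAOB, by an amount that did not pass (adjusted p = 0.148).

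None of the 10 genes was called in EBF2-OE against Vector. A call required a fold change above 1.5 and an adjusted p-value under 0.05 over all genes tested by edgeR, and 0% of the 15560 genes tested met it (208 had an unadjusted p-value under 0.05, and DESeq2 called 7). EBF2 itself, with a log2 fold change of 10.75 ± 1.55, was not called in this fit (adjusted p = 1.000), so that the lack of a call says little about whether these genes differed. MAOA and PAOX had too few counts, and of the other 8 none had an unadjusted p-value under 0.05, by edgeR, and none was called by DESeq2. Without a fold limit the background was also 0%, and the smallest adjusted p-value over all genes was 0.208. The median log2 fold change of the 8 was -0.05, and that of all genes tested was 0.00.

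Of these, ODC1 (chromosome 2, 10439968 to 10448327, minus strand) had the largest difference. ODC1 stood at 114.9 and 140.3 TPM in Vector and at 105.1 and 93.7 TPM in EBF2-OE. Both EBF2-OE libraries were lower than both Vector libraries, by a log2 fold change of -0.33 ± 0.156 that did not pass (adjusted p = 1.000). SMOX (chromosome 20, 4148828 to 4187732, plus strand) was at 68.0 and 59.0 TPM in Vector and 60.1 and 45.4 TPM in EBF2-OE. The groups overlapped, with a log2 fold change of -0.24 ± 0.166. The others lay within 0.10 of 0 on the log2 scale: OAZ1 at 0.07 ± 0.111, AMD1 at -0.10 ± 0.138, SAT1 at -0.06 ± 0.396, SRM at -0.05 ± 0.113 and SMS at -0.03 ± 0.142.

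SAT1 (chromosome X, 23783173 to 23786210, plus strand), the rate-limiting enzyme of polyamine breakdown, carried the widest error, and its level followed the library number. SAT1 stood at 89.8 TPM in Vector 2 and 75.8 TPM in EBF2-OE 2, and at 154.1 TPM in Vector 3 and 154.4 TPM in EBF2-OE 3. The libraries numbered 3 were thus 1.72-fold (Vector) and 2.04-fold (EBF2-OE) above those numbered 2, while Vehicle and GSK-LSD1 libraries differed within their groups by 1.13-fold and 1.04-fold. Leaving out Vector 3 gave a log2 fold change for SAT1 of 0.41 and leaving out EBF2-OE 2 gave 0.37, so that its direction rests on single libraries. The labels do not say what the numbers stand for.

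**Figure D2:**
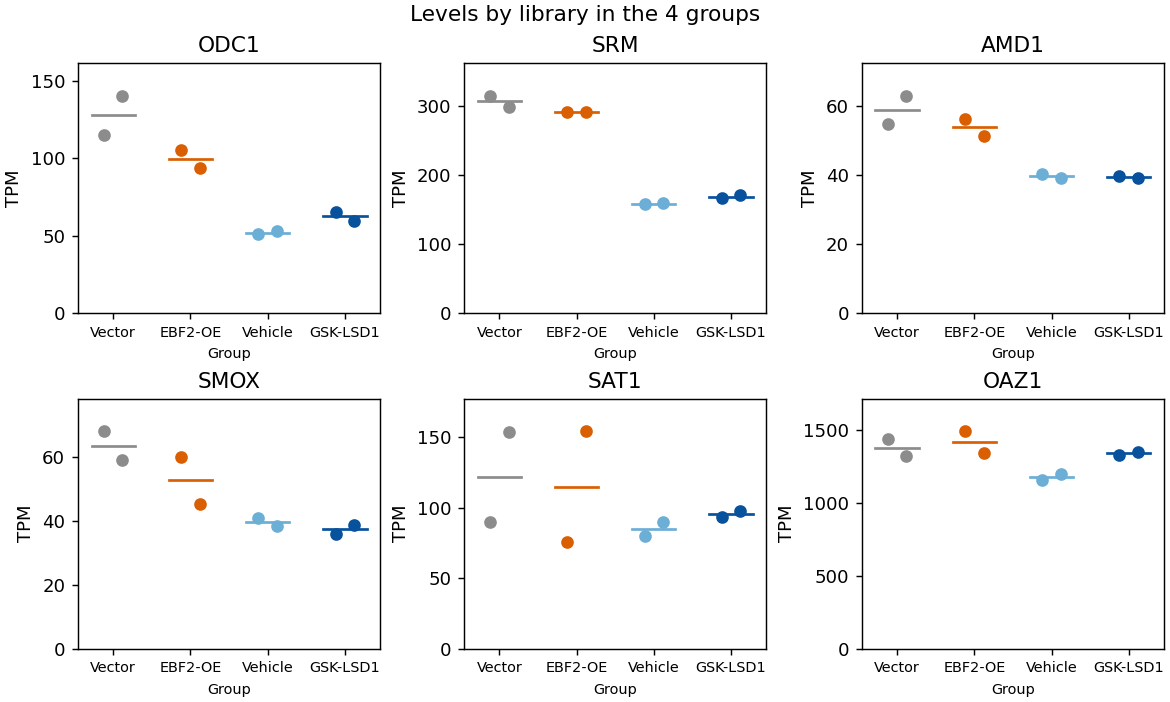
TPM of 6 genes by group; points are single libraries (left, the lower replicate number) and lines the mean of 2. ODC1, SRM, AMD1 and SMOX are higher in Vector and EBF2-OE than in Vehicle and GSK-LSD1, and SAT1 splits by library within Vector and EBF2-OE.

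GSK-LSD1 against Vehicle gave 0 calls among the 9 genes tested, where 4.57% of the 16059 genes tested were called, and DESeq2 called 0 as well. Of these 9, 7 had an unadjusted p-value under 0.05 (5247 of all genes tested did). Without a fold limit, an alternative chosen after the data were seen, the adjusted p-value under 0.05 was passed by 3 of the 9: ODC1, OAZ1 and SAT1, all higher with GSK-LSD1. The background for that rule was 18.7%, and these counts were not tested against it. Marker sums moved with the same contrast, and their part in the result was not tested. From Vehicle to GSK-LSD1, epithelial markers, mostly KRT8, KRT18 and KRT7, went from between 7119 and 7231 TPM to between 5317 and 5360 TPM. These keratins were lower, whereas MUC1 overlapped, at 147.9 and 123.5 TPM in Vehicle and 135.1 and 161.9 TPM in GSK-LSD1. On few counts, KRT19 was lower, CDH1 overlapped and EPCAM was not lower. Fibroblast markers went from between 57.69 and 58.7 TPM to between 62.63 and 65.17 TPM. COL1A1, COL1A2, DCN and LUM were higher, whereas COL3A1 and PDGFRB were lower. Endothelial markers went from between 4.884 and 5.042 TPM to between 2.633 and 2.793 TPM. Of these, CDH5 and VWF were lower, whereas PECAM1, on few counts, was slightly higher in TPM. Immune markers went from between 12.18 and 15.03 TPM to between 18.02 and 19.71 TPM. Nearly all of this was CD68, at 10.92 and 13.25 TPM in Vehicle and 16.65 and 18.06 TPM in GSK-LSD1. On few counts, CD79A was higher, CD14 lower and PTPRC overlapped, and CD3E had no counts. The median log2 fold change of the 9 was 0.12, and that of all genes tested was -0.01.

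Among synthesis enzymes ODC1, the entry step, stood at 51.1 and 53.0 TPM in Vehicle and at 65.5 and 59.5 TPM in GSK-LSD1. Both treated libraries were higher than both controls, with a log2 fold change of 0.30 ± 0.0689, or 1.23-fold (adjusted p = 0.0130). SRM (chromosome 1, 11054589 to 11060053, minus strand) was at 158.1 and 158.5 TPM in Vehicle and 166.2 and 170.0 TPM in GSK-LSD1, without overlap, but its log2 fold change of 0.12 ± 0.0525 did not pass (adjusted p = 0.141). SMS (chromosome X, 21940709 to 21994837, plus strand) was on the other side, at 141.6 and 147.6 TPM in Vehicle and 130.4 and 122.8 TPM in GSK-LSD1. The difference of -0.16 ± 0.0553 (log2) did not pass either (adjusted p = 0.0744). AMD1 (chromosome 6, 110814617 to 110895713, plus strand) did not separate, at 40.4 and 39.2 TPM in Vehicle and 39.6 and 39.2 TPM in GSK-LSD1, a log2 fold change of 0.02 ± 0.0629.

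OAZ1 (chromosome 19, 2269486 to 2273488, plus strand), the inhibitor of ODC1, stood at 1158 and 1194 TPM in Vehicle and at 1328 and 1345 TPM in GSK-LSD1. Both treated libraries were higher, with a log2 fold change of 0.22 ± 0.0424, or 1.16-fold (adjusted p = 0.00563). Thus the mRNAs of ODC1 and of its inhibitor were both higher, by 1.23-fold and 1.16-fold. For both genes the Vehicle libraries also lay below every Vector and EBF2-OE library in TPM. The share of all genes with that pattern was not counted. SAT1, which also passed without a fold limit, did not show it. Its Vehicle libraries stood at 79.7 and 90.1 TPM, with Vector 2 at 89.8 TPM and EBF2-OE 2 at 75.8 TPM.

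On the breakdown side SAT1 was at 79.7 and 90.1 TPM in Vehicle and 93.9 and 97.9 TPM in GSK-LSD1, with a log2 fold change of 0.21 ± 0.0622, or 1.16-fold (adjusted p = 0.0396). SMOX did not separate, at 40.8 and 38.4 TPM in Vehicle and 35.9 and 38.7 TPM in GSK-LSD1 (log2 fold change -0.05 ± 0.0731). PAOX (chromosome 10, 133379262 to 133391694, plus strand) had the largest difference on the lowest counts, 22 and 18 in Vehicle and 37 and 25 in GSK-LSD1. The difference of 0.82 ± 0.344 (log2) did not pass (adjusted p = 0.125).

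ODC1, OAZ1 and SAT1 no longer passed the adjusted p in 1 fit over all 8 libraries, which estimates 1 spread for both experiments (adjusted p = 0.377, 0.291 and 0.864), with log2 fold changes of 0.30, 0.22 and 0.21 as before. In that fit the calls among all genes were 100 in place of 734. ODC1 also failed it without GSK-LSD1 1 (adjusted p = 0.134) and SAT1 with DESeq2 (0.0893), with upper-quartile scaling (0.0503) and without Vehicle 1 (0.158), GSK-LSD1 1 (0.150) or GSK-LSD1 2 (0.182).

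**Figure D3:**
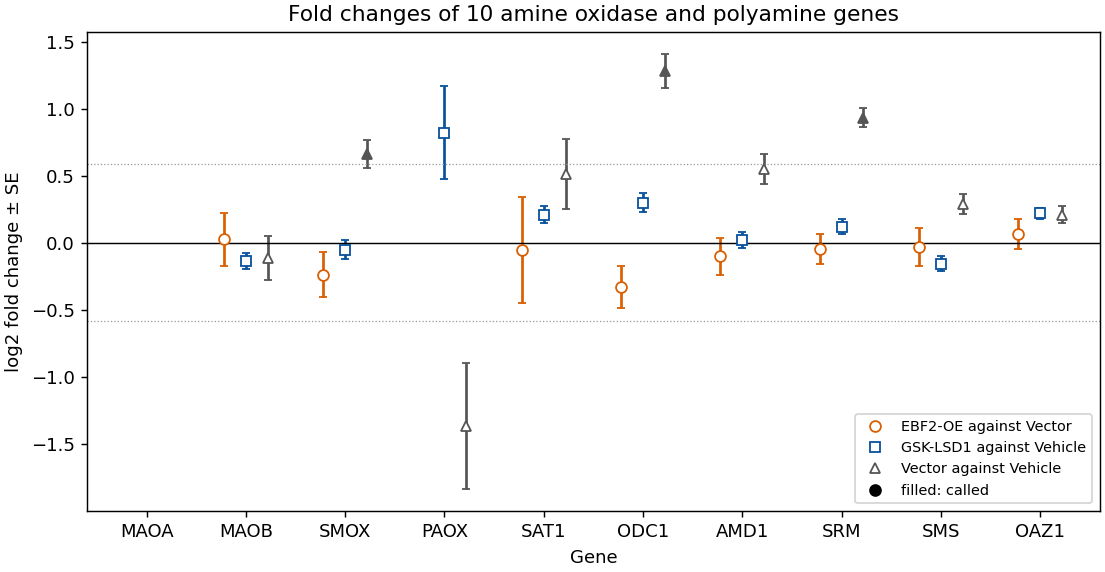
log2 fold change ± SE of each tested gene in the 3 comparisons (edgeR); filled symbols were called and dotted lines mark a 1.5-fold change. The filled symbols are SMOX, ODC1 and SRM in Vector against Vehicle; MAOA was not tested, nor was PAOX in EBF2-OE against Vector.

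The effects of GSK-LSD1 and EBF2-OE were set against each other as a difference of log2 fold changes over all 8 libraries. None of the 9 genes tested was called by edgeR or by DESeq2. Of the 16558 genes tested in all, edgeR called 0% (1268 had an unadjusted p-value under 0.05) and DESeq2 called 94 genes. Of the 9, 1, ODC1, had an unadjusted p-value under 0.05. For ODC1, higher in both GSK-LSD1 libraries and lower in both EBF2-OE libraries, the difference was 0.64 ± 0.184 (adjusted p = 0.432). Without a low-count filter its adjusted p-value was 0.0198, and over all alternatives it ranged up to 1.000.

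Vector and Vehicle are the controls of separate experiments, and carrying a vector, receiving a vehicle and any batch cannot be told apart in them. The synthesis enzymes ODC1 and SRM and the oxidase SMOX were higher in Vector. These were the 3 called of the 9 genes tested, where 16.0% of the 16019 genes tested were called, and DESeq2 also called 3. Without a fold limit AMD1 and SMS passed too, which makes 5 of 9 against 26.8% of all genes, and includes all 4 synthesis enzymes. SMS did not pass with DESeq2 (adjusted p = 0.0509), with upper-quartile scaling (0.0875) or in 1 fit over all 8 libraries (0.0798). The median log2 fold change of the 9 was 0.51, and that of all genes tested was 0.00.

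ODC1 was 2.43-fold higher in Vector, at a mean of 127.6 ± 17.9 TPM (SD, n = 2) against 52.0 ± 1.36 in Vehicle, with a log2 fold change of 1.28 ± 0.128 (adjusted p = 0.00787). SRM was 1.91-fold higher, at 306.3 ± 11.1 TPM against 158.3 ± 0.263 (log2 fold change 0.93 ± 0.0712, adjusted p = 0.00609). SMOX was 1.58-fold higher, at 63.5 ± 6.38 TPM against 39.6 ± 1.66 (log2 fold change 0.66 ± 0.103, adjusted p = 0.0136). For these 3 genes neither Vector library overlapped the Vehicle libraries.

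AMD1, at 54.7 and 63.0 TPM in Vector against 40.4 and 39.2 TPM in Vehicle, had a log2 fold change of 0.55 ± 0.114 (adjusted p = 0.0241). SMS, at 188.4 and 168.9 TPM against 141.6 and 147.6 TPM, had one of 0.29 ± 0.0740 (adjusted p = 0.0415). OAZ1 (0.21 ± 0.0646, adjusted p = 0.0643), SAT1 (0.51 ± 0.263) and MAOB (-0.11 ± 0.163) did not pass. PAOX was the only gene with both Vector libraries below both Vehicle libraries, with 8 and 5 counts against 22 and 18, and did not pass (log2 fold change -1.37 ± 0.470, adjusted p = 0.0810).

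Leaving out a Vehicle library removed calls among all genes, from 2558 to 12 without Vehicle 1 and to 235 without Vehicle 2. Without Vehicle 1 none of the 10 genes was called, with adjusted p-values of 0.0721 for ODC1, 0.0735 for SRM and 0.117 for SMOX, although their log2 fold changes were 1.26, 0.94 and 0.72. Without Vehicle 2 only ODC1 was called, and without Vector 2 there were 5 calls, AMD1 and SAT1 being added, among 4259 called genes in all. Endothelial markers, mostly CDH5, summed to between 0.7171 and 0.7983 TPM in Vector and between 4.884 and 5.042 TPM in Vehicle, with KDR at 0 or 1 count. VWF was lower in Vector too, whereas PECAM1 overlapped. Epithelial markers, mostly KRT8, KRT18 and KRT7, summed to between 4622 and 4952 TPM in Vector and between 7119 and 7231 TPM in Vehicle, though KRT7 and MUC1 overlapped. Immune markers, mostly CD68, summed to between 23.32 and 27.12 TPM in Vector and between 12.18 and 15.03 TPM in Vehicle. CD14, CD79A and PTPRC overlapped. Fibroblast markers summed to between 51.45 and 56.44 TPM in Vector and between 57.69 and 58.7 TPM in Vehicle. PDGFRB, COL3A1 and DCN were lower in Vector, COL1A1 was higher, and COL1A2 and LUM overlapped. Mitochondrial genes took 0.744% and 1.08% of counts in Vector and 1.29% and 1.35% in Vehicle. The part of these differences in the result was not tested.

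Within each library the summed TPM of the breakdown enzymes (SMOX, PAOX and SAT1) was divided by that of the synthesis enzymes (ODC1, AMD1, SRM and SMS), as a description with no test. The ratio was 0.2355 and 0.3181 in Vector, 0.2123 and 0.3407 in EBF2-OE, 0.311 and 0.325 in Vehicle and 0.3284 and 0.3528 in GSK-LSD1. The lowest values were those of Vector 2 and EBF2-OE 2, the libraries with the lower SAT1, and both GSK-LSD1 libraries lay above both Vehicle libraries. The synthesis sum itself was between 588.8 and 672.2 TPM in Vector and EBF2-OE and between 391.2 and 401.7 TPM in Vehicle and GSK-LSD1. SAT1 over ODC1 ranged from 0.721 in EBF2-OE 2 to 1.70 in Vehicle 2.

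Of 38 further genes in 8 lists around the pathway, 33 were tested in each of the 3 comparisons. In EBF2-OE against Vector none was called by edgeR or DESeq2, and none had an unadjusted p-value under 0.05. The largest log2 fold changes were 0.89 ± 0.558 for AZIN2, an antizyme inhibitor, on 14 to 40 counts, -0.80 ± 0.510 for IL4I1, a secreted L-amino acid oxidase, on 14 to 38 counts, and 0.66 ± 0.473 for OAZ3, the testis antizyme. In the better measured lists the largest were -0.32 ± 0.165 for SLC3A2, a transporter heavy chain linked to putrescine export, 0.22 ± 0.173 for ATP13A2, the lysosomal polyamine exporter, and 0.23 ± 0.135 for ALDH2, an aldehyde dehydrogenase. The other genes of the lists with the largest values lay between -0.11 for ARG2 and 0.17 for KDM1B.

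In GSK-LSD1 against Vehicle none of the 33 was called by edgeR or DESeq2, 14 had an unadjusted p-value under 0.05, and 8 passed the adjusted p-value alone, 5 of them higher and 3 lower, where 18.7% of all genes passed. DESeq2 passed 5 of these 8, and in 1 fit over all 8 libraries none of the 8 passed (adjusted p between 0.0867 and 0.609). In the transport list all 4 genes passed by edgeR and 2 by DESeq2, which did not pass SLC18B1 (adjusted p = 0.119) and ATP13A2 (0.133). SLC18B1, a vesicular polyamine transporter, was highest in change, at 4.85 and 4.01 TPM in Vehicle and 6.12 and 6.40 TPM in GSK-LSD1 (log2 fold change 0.54 ± 0.138, adjusted p = 0.0218). ATP13A3, a P5B-type transporter linked to polyamine uptake, went from 10.62 and 12.01 TPM to 13.97 and 13.75 TPM (0.33 ± 0.0697, adjusted p = 0.00901), and SLC3A2 from 316.3 and 326.4 TPM to 372.3 and 361.1 TPM (0.23 ± 0.0483, adjusted p = 0.00925). ATP13A2 was lower, from 52.7 and 51.3 TPM to 42.9 and 46.0 TPM (-0.19 ± 0.0592, adjusted p = 0.0446). For all 4 genes both Vehicle libraries also stood apart in TPM from every Vector and EBF2-OE library, for ATP13A2 narrowly. The share of all genes that do so was not counted, here and for the genes described in this way below. All of these genes had passed against the same Vehicle libraries, so the pattern says nothing particular about them.

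KDM1A, the target of GSK-LSD1, was lower at 138.0 and 144.1 TPM against 177.4 and 157.9 TPM in Vehicle (log2 fold change -0.22 ± 0.0644, adjusted p = 0.0403). KDM1B, its closest relative among the flavin demethylases, was higher at 15.6 and 15.4 TPM against 11.5 and 11.6 TPM (0.47 ± 0.0824, adjusted p = 0.00339). Without Vehicle 1 the log2 fold change of KDM1A was -0.11. Vehicle also stood apart from the other experiment for both genes. KDM1A was at 132.9 and 128.9 TPM in Vector and 142.8 and 119.0 TPM in EBF2-OE, all below Vehicle. KDM1B was at 14.85 and 14.90 TPM in Vector and 16.86 and 15.86 TPM in EBF2-OE, all above Vehicle. What sets Vehicle apart was not tested. IL4I1 in the same list did not pass (0.51 ± 0.394). ALDH1B1, a mitochondrial aldehyde dehydrogenase, was higher (0.37 ± 0.0696, adjusted p = 0.00449). DHPS, which starts hypusine formation from spermidine, was lower (-0.21 ± 0.0644, adjusted p = 0.0468) but did not pass by DESeq2 (0.181) or without a low-count filter (0.0591). For ALDH1B1 and DHPS too, both Vehicle libraries stood apart from every Vector and EBF2-OE library in TPM. Without GSK-LSD1 1 only KDM1B (adjusted p = 0.0387) and ALDH1B1 (0.0269) of the 8 still passed.

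Of the remaining genes with the largest changes in their lists none passed. These were DOHH, which completes hypusine (-0.36 ± 0.128), EIF5A2 (0.33 ± 0.191), SAT2 (0.27 ± 0.0910), the polyamine deacetylase HDAC10 (-0.23 ± 0.0940), AZIN2 (-0.54 ± 0.321), OAZ2 (0.16 ± 0.0623), ARG2 (0.20 ± 0.172), OAT (0.18 ± 0.0755), MAT2B (-0.18 ± 0.0626), ADI1 (-0.15 ± 0.0979) and ALDH9A1 (0.13 ± 0.0657). In the supply and methionine salvage list 0 of 7 tested genes passed.

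**Figure D4:**
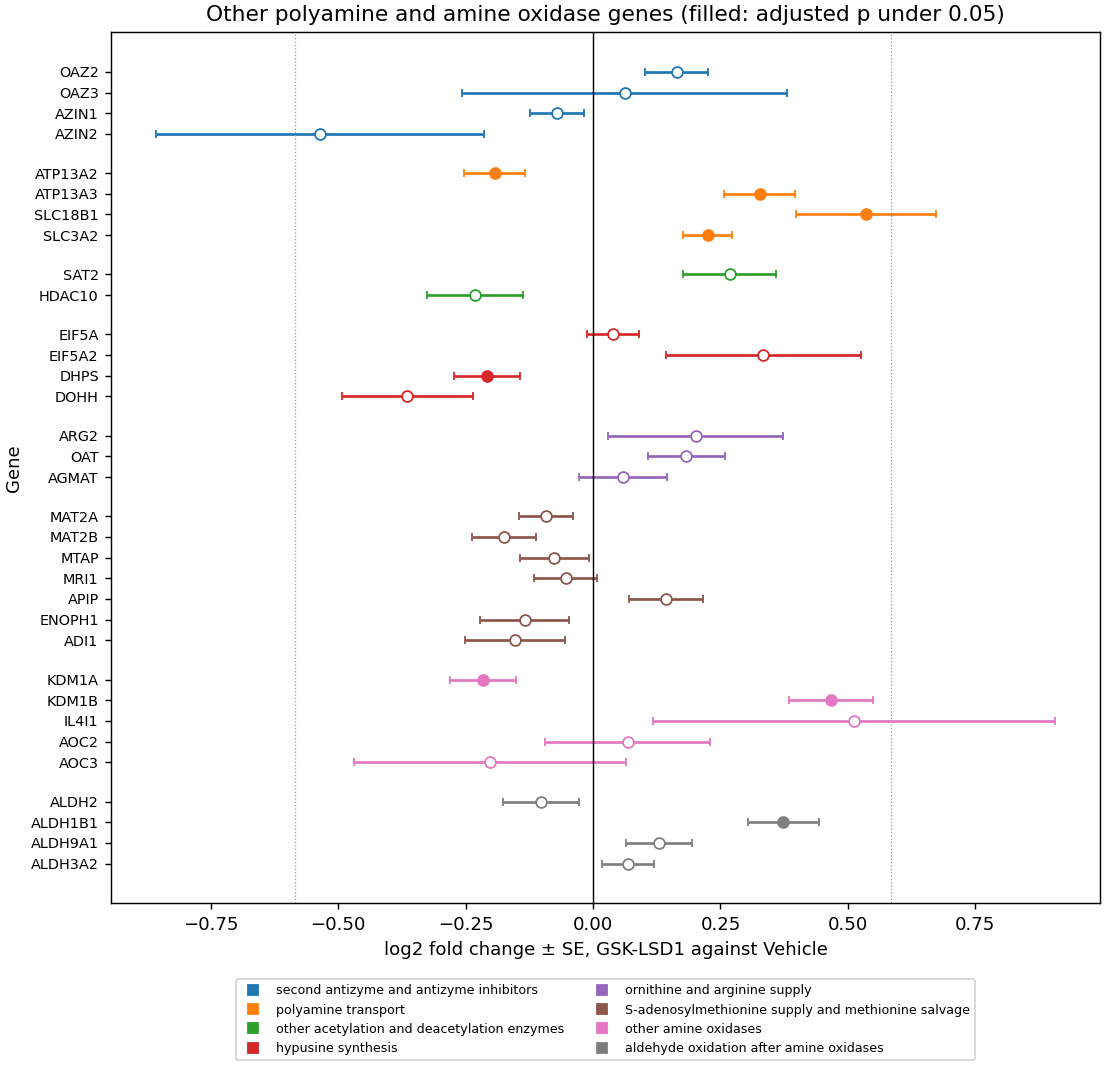
log2 fold change ± SE of the 33 tested pathway genes in GSK-LSD1 against Vehicle, grouped by list and coloured as in the key; filled points passed an adjusted p-value under 0.05 and dotted lines mark a 1.5-fold change. The 4 transport genes are filled, 3 to the right of 0 and ATP13A2 to the left.

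In Vector against Vehicle 5 of the 33 pathway genes were called by edgeR and 5 by DESeq2, a share near the 16.0% of all genes. ATP13A3 (log2 fold change 0.90 ± 0.0926), SLC3A2 (0.75 ± 0.0657), EIF5A2 (1.07 ± 0.199) and EIF5A (0.59 ± 0.0755) were higher in Vector, and ALDH2 was lower (-0.71 ± 0.110), with adjusted p-values between 0.00693 and 0.0190. EIF5A, the translation factor that carries hypusine, stood at 815.9 and 831.9 TPM in Vector and 559.8 and 523.5 TPM in Vehicle. Its fold change of 1.5 sits at the limit, and it was not called with DESeq2 size factors, upper-quartile scaling, no low-count filter or at least 10 counts in every library, though its adjusted p-value stayed at or under 0.0108. Without the fold limit AZIN1 (0.33 ± 0.0773), AGMAT (0.52 ± 0.0988) and ALDH1B1 (0.34 ± 0.0902) also passed as higher, and KDM1A (-0.38 ± 0.0889) and DHPS (-0.36 ± 0.0897) as lower. The others with the largest changes in their lists did not pass: AZIN2 (-0.92 ± 0.335), HDAC10 (-0.46 ± 0.132), SAT2 (-0.11 ± 0.128), ARG2 (-0.22 ± 0.157), ADI1 (0.49 ± 0.156), MAT2B (-0.28 ± 0.0886) and IL4I1 (1.00 ± 0.447). Leaving out either Vehicle library left 0 pathway calls, as calls fell to 12 and 235 among all genes.

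Counting could blur some of these genes. The strand setting is not given in the sources used here, and AMD1 overlaps CDK19 on the opposite strand at its 5′ end. GENCODE v44 also annotates processed pseudogenes of OAZ1, SRM, AMD1 and SMS, with which near-identical reads could be shared, so that the levels of these 4 genes are uncertain to that extent. Read sharing was not measured for any gene.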

How the data were processed

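The authors isolated poly(A) RNA, sequenced it with paired ends, used HISAT2 with default parameters for alignment to hg38 and deposited raw counts per gene from HTSeq, together with TPM (the count divided by gene length and rescaled per library). The annotation, tool versions and strand setting are not given in the sources used here. The deposited TPM was checked against the counts and used only for levels. The tests ran on the counts in edgeR 4.0.16 (R 4.3.3): TMM, filterByExpr with a minimum count of 10, the quasi-likelihood test, two-sided, with Benjamini-Hochberg adjustment over all genes tested. Each comparison used its own 4 libraries, and the difference of effects all 8. The 2 libraries of each group differed beyond sampling noise. A call needed a fold change above 1.5 and an adjusted p under 0.05. The SE came from the test statistic. CPM used TMM factors of all 8 libraries. The text names all 10 members, every called pathway gene, the 2 tested genes with the largest change in each list, KDM1A and EBF2; other genes named were chosen after their values were seen. Members and lists were chosen with earlier results of these data known. Alternatives were DESeq2 1.42.0, its size factors, upper-quartile scaling, no filter, a floor of 10 counts in each library, 1 model of 8 libraries, the replicate number as a block and leaving out each library. Only the main edgeR fits of EBF2-OE against Vector and of GSK-LSD1 against Vehicle were also run on simulated counts, with an outcome not given here. Python 3.11.15, numpy 2.4.6, pandas 2.3.3, scipy 1.17.1 and matplotlib 3.10.9 were used. The other assays of the study were not analysed here.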

Additional observations from a re-analysis of the deposited data

Results flagged for a closer look

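For 5 of the named genes both libraries of one treatment lay above their controls and both libraries of the other below, in CPM (counts per library total scaled by TMM). Only the members and the named pathway genes were searched for this pattern. Its share among all genes was not counted, so the number says nothing particular about these genes. Each difference of the GSK-LSD1 and EBF2-OE effects was tested over all 8 libraries, and none passed. For ODC1 the difference in log2 fold change was 0.64 ± 0.184 (adjusted p = 0.432), with 78.1 and 69.1 CPM in GSK-LSD1, 59.3 and 60.1 in Vehicle, 121.1 and 108.1 in EBF2-OE and 127.2 and 163.2 in Vector. For the transporter subunit SLC3A2 it was 0.55 ± 0.181 (adjusted p = 0.509), and for the transporter ATP13A3 it was 0.52 ± 0.175 (adjusted p = 0.527). SRM (0.18 ± 0.105, adjusted p = 0.760) moved the same way as these 3, and the antizyme inhibitor AZIN1 (-0.14 ± 0.113, adjusted p = 0.820) the opposite way. With groups of 2, no single library could be tested for standing apart.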

How the results depend on the processing

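With 2 libraries a group, leaving 1 out leaves a lone library that is assumed to vary like the rest. For single genes, 537 of 542 values under other settings kept direction and call, 4 lost it (EIF5A, Vector against Vehicle) and 1 gained it: ODC1 in the difference of effects without a low-count filter, the 1 member called there. Of 368 values without a library, 314 kept both. Few of these genes were called in the main fits, and a gene that stayed uncalled with the same sign counts as kept. Much of this agreement was therefore set in advance. A loss of the adjusted p-value alone, as for ODC1 and OAZ1 in 1 fit over all 8 libraries, does not enter these counts. In GSK-LSD1 against Vehicle, dropping the fold limit gave 3 members and 8 pathway genes in place of 0 and 0. There the 3 became 0 in 1 fit over all 8 libraries and 1 to 3 without single libraries, and the 0 pathway calls became 0 to 1 (SLC18B1 without Vehicle 1). In Vector against Vehicle, dropping the limit gave 5 members and 10 pathway genes in place of 3 and 5. Leaving out libraries gave 0 to 5 member calls, 0 to 6 pathway calls, and 0 to 7 members past the adjusted p alone. The cause was not tested.

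Some log2 fold changes that did not pass changed sign without a library. In EBF2-OE against Vector these ranged from -0.19 to 0.28 for MAOB, -0.67 to 0.41 for SAT1, -0.011 to 0.13 for OAZ1, -0.22 to 0.033 for AMD1, -0.19 to 0.10 for SMS, -0.14 to 0.049 for SAT2, -0.36 to 0.24 for HDAC10, -0.14 to 0.30 for EIF5A2, -0.73 to 0.36 for DOHH, -0.45 to 0.17 for ARG2, -0.0093 to 0.24 for OAT, -0.35 to 0.10 for ENOPH1, -0.12 to 0.22 for MTAP and -0.038 to 0.32 for ALDH3A2. In GSK-LSD1 against Vehicle they ranged from -0.11 to 0.0085 for SMOX, -0.020 to 0.060 for AMD1, -0.14 to 0.48 for ARG2 and -0.30 to 0.0093 for ADI1, and in Vector against Vehicle from -0.37 to 0.11 for MAOB. In the difference of effects they ranged from -0.42 to 0.049 for MAOB, -0.15 to 1.77 for PAOX, -0.20 to 0.88 for SAT1, -0.011 to 0.23 for AMD1 and -0.26 to 0.047 for SMS.

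With the replicate number as a block, 0 members were called in EBF2-OE against Vector, GSK-LSD1 against Vehicle and the difference of effects, 3 still passed the adjusted p alone in GSK-LSD1 against Vehicle, and the SE of SAT1 in EBF2-OE against Vector was 0.136 in place of 0.396. Same-numbered libraries' deviations correlated at 0.338 for EBF2-OE and Vector and -0.044 for GSK-LSD1 and Vehicle. With 2 pairs these share only a number. Vector and Vehicle share 1 number, so no block was run there. With MAOA at 3 to 10 counts and PAOX at 3 to 37, depth limits both.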

Other observations

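MAT2A, which makes the S-adenosylmethionine that AMD1 uses, followed the library number as SAT1 did, in the opposite direction. It was looked at after its values were seen. MAT2A stood at 349.0 TPM in Vector 2 and 348.6 TPM in EBF2-OE 2, and at 213.8 TPM in Vector 3 and 213.3 TPM in EBF2-OE 3, a 1.63-fold gap within both groups. Vehicle and GSK-LSD1 libraries lay between 218.3 and 251.3 TPM. The log2 fold change of MAT2A in EBF2-OE against Vector was 0.03 ± 0.292.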
